A study of Mus musculus with 20 samples.

Results

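Complement is a cascade of plasma and tissue proteins that marks particles for uptake by phagocytes and recruits leukocytes. The 9 genes described here are those of the deposited expression table with the symbols C1qa, C1qb, C1qc, C2, C4b, C3, Cfb, C3ar1 and C5ar1 out of 24054 genes. They encode the recognition molecule of the classical pathway, components of the C3-cleaving enzymes, and the receptors of the C3a and C5a peptides. The RNA came from whole lung of female C57Bl6 mice and gave 20 libraries in 4 groups of 5 biological replicates. KO_HDM libraries came from mice labelled ALOX15 knockout that received house dust mite (HDM) extract into the nose daily for 14 days, and KO_saline libraries from mice with the same label that received saline. WT_HDM and WT_saline libraries came from wild-type mice with the same treatments; the sample titles call the saline PBS. HDM is an inhaled allergen that causes allergic airway inflammation, and ALOX15 is an enzyme that adds oxygen to polyunsaturated fatty acids. The question named in the study's own description is how dust-mite-challenged lungs of both genotypes compare.

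Alox15 itself went against the knockout label, with 35.0 to 45.5 CPM in KO_HDM libraries and 38.4 to 44.7 CPM in KO_saline libraries, against 7.92 to 29.8 CPM in WT_HDM libraries and 0.825 to 11.1 CPM in WT_saline libraries. CPM is the expected count of a gene scaled to a fixed library size, after correction with TMM factors. A gene-level count does not resolve exons, so it cannot be said whether the transcript is intact. The libraries are therefore called knockout-labelled throughout, and every direction drawn between the labels rests on that name only. Expected counts per library summed to between 17840107 and 21082734 in KO_HDM, 21120826 and 23305645 in KO_saline, 12573094 and 20662555 in WT_HDM, and 15601820 and 21715791 in WT_saline. Some libraries held transcripts of tissue other than lung. The liver product Alb had 376 to 1570 counts in KO_HDM libraries and 13 to 25 in KO_saline libraries, against 0 to 4 in WT_HDM libraries and 7 to 15 in WT_saline libraries. Adipoq, a fat cell marker, reached 50 CPM or more in KO_HDM 5, WT_HDM 2, WT_HDM 4, WT_saline 2 and WT_saline 4, and skeletal muscle markers were high in WT_HDM 2.

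In the classical pathway C1q, a hexamer of trimers built from an A, a B and a C chain, binds antibody complexes or surfaces and starts cleavage of C4 and C2, whose fragments form an enzyme that cleaves C3. In the alternative pathway, factor B (encoded by Cfb) joins deposited C3b to form a second C3-cleaving enzyme. Macrophages are the main source of C1q in most tissues, while C3 and factor B are made by the liver and, in inflamed lung, by epithelial and myeloid cells. C3a and C5a act through the receptors C3aR (C3ar1) and C5aR1 (C5ar1), which are carried mainly by myeloid cells.

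RefSeq promoter sequences of assembly GRCm38.p6, from 250 bases before to 50 bases after the annotated start of transcription, were matched by symbol for 5 of the 9 genes, namely C1qb, C1qc, C3, C3ar1 and C5ar1. The 3 that follow are printed because the C1q chains lie beside each other and moved together between groups, and because C3 is the most abundant of the 9 transcripts. They lie on the minus strand at chr4:136886151-136886450 (C1qb), chr4:136892865-136893164 (C1qc) and chr17:57228087-57228386 (C3), and are written 5′ to 3′ in the direction of the gene. As a check, the end of each sequence was looked for in the GENCODE transcripts of the same gene. It was found for C1qc and C3 but not for C1qb, so that check does not back the start used for C1qb. Capitals mark matches, on either strand, to 4 searched motifs.
C1qb: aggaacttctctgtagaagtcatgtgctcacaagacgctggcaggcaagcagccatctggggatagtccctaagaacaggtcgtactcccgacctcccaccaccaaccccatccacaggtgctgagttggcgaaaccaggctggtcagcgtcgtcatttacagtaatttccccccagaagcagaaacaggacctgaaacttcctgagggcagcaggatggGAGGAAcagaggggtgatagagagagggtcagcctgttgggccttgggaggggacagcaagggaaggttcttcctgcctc
C1qc: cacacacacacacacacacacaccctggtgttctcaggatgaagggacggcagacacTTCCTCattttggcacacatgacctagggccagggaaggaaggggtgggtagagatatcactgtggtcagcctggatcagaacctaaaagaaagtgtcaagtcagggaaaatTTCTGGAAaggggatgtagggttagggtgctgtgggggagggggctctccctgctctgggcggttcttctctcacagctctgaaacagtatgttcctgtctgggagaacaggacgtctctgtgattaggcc
C3: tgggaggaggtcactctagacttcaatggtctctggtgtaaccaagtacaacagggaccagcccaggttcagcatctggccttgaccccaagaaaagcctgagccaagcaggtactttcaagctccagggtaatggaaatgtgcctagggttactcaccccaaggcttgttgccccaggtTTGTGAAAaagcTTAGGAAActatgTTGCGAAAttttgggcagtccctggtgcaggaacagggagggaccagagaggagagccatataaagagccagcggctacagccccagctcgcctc
The motifs were GAGGAA, of the type bound by the macrophage factor PU.1, TTNNGNAA, of the type bound by C/EBP factors, TTCNNNGAA, of the type bound by STAT factors, and a longer interferon-response-type motif. The C1qb promoter held 1 match to GAGGAA, and the C1qc promoter held 1 to GAGGAA (read on the opposite strand, TTCCTC) and 1 to TTNNGNAA. The C3 promoter held 3 matches to TTNNGNAA, all between positions -70 and -38 from the start. The promoter of C5ar1 held 1 match to TTNNGNAA, and that of C3ar1 held none to any of the 4 motifs. Among 32851 RefSeq mouse promoters of the same length, 28.3% held GAGGAA, 40.7% TTNNGNAA, 8.30% TTCNNNGAA and 3.44% the interferon-response-type motif, so the first 2 motifs are common. A match describes these letters in this window and is not evidence of a binding site.

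On a scale of CPM per kilobase of exon, C3 was the most abundant of the 9 transcripts in every group, at 651 ± 106 in KO_HDM, 295 ± 39.0 in KO_saline, 611 ± 137 in WT_HDM and 250 ± 73.4 in WT_saline (SD, n = 5 each). C3 alone took 0.25% to 0.383% of all counts in KO_HDM libraries and 0.122% to 0.172% in KO_saline libraries, against 0.258% to 0.425% in WT_HDM libraries and 0.0856% to 0.182% in WT_saline libraries. In KO_HDM lungs the next levels were C1qa (123 ± 38.8), C1qb (103 ± 28.8), Cfb (90.9 ± 22.7), C4b (76.5 ± 8.08) and C1qc (54.3 ± 17.1 CPM per kilobase), and the library ranges of neighbours in this order overlapped. C3ar1 (21.8 ± 9.85) lay below all of these with no overlap. C5ar1 (9.42 ± 2.97) and C2 (7.65 ± 1.25) were lowest and overlapped. In WT_saline lungs the order was different. C4b (58.0 ± 18.4 CPM per kilobase) came second, then C1qa (26.9 ± 12), Cfb (20.6 ± 12.2), C1qb (19.3 ± 9.40), C1qc (11.7 ± 5.73), C2 (9.94 ± 2.87) and C5ar1 (5.83 ± 1.02), each overlapping its neighbour. C3ar1 was lowest there, at 1.75 ± 0.286 CPM per kilobase, with every library below every library of C5ar1. Every one of the 9 genes had at least 105 counts in every library, so none was near the limit of detection.

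**Figure D1:**
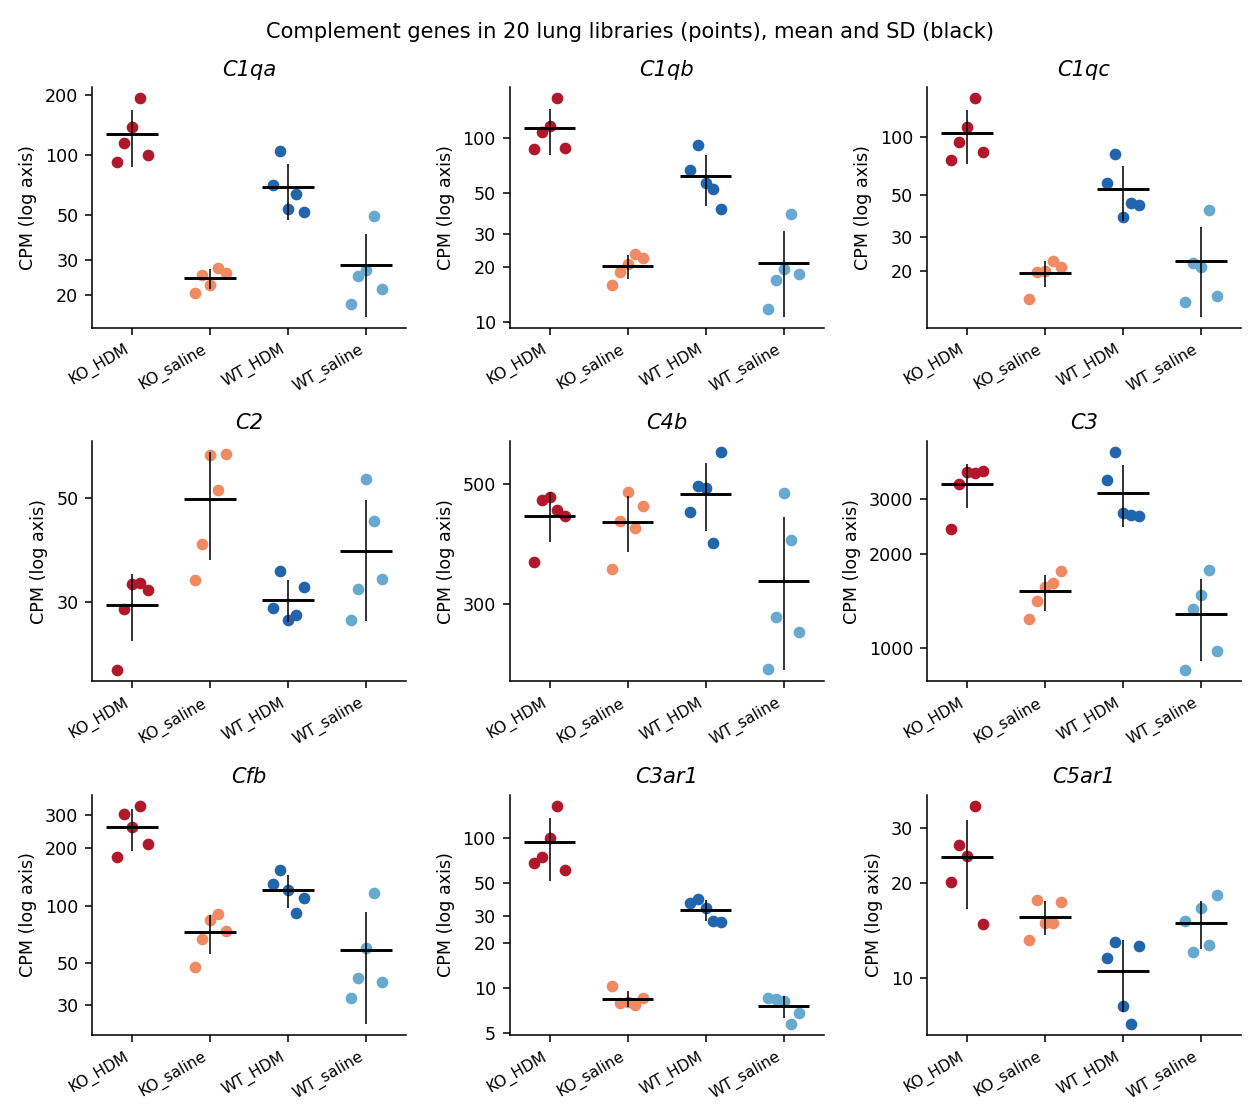
Level of each of the 9 complement genes in each of the 20 lung libraries, in CPM on a log axis, with the groups KO_HDM, KO_saline, WT_HDM and WT_saline from left to right; points are libraries, black bars the mean and thin lines the SD (n = 5). The C1q chains, C3, Cfb and C3ar1 were higher in both HDM groups than in the saline group of the same label, C5ar1 was lowest in WT_HDM (7.13 to 13.05 CPM), and C2 was highest in KO_saline (33.4 to 62.1 CPM).

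HDM raised most of these genes under both labels. In knockout-labelled lungs 7 of the 9 were higher in KO_HDM than in KO_saline and 1, C2, was lower, by edgeR's quasi-likelihood test at a Benjamini-Hochberg adjusted p under 0.05, in a comparison in which 51.9% of the 16193 genes tested were called, 26.2% higher and 25.7% lower. In wild-type lungs 7 of the 9 were higher in WT_HDM than in WT_saline and none lower, where 30.1% of all genes were called, 13.6% higher and 16.5% lower. The median log2 fold change of the 9 was 1.83 in knockout-labelled and 1.23 in wild-type lungs, beside medians of 0.02 and -0.02 over all genes tested. The genes higher in both were C1qa, C1qb, C1qc, C3, Cfb and C3ar1. C5ar1 was higher in the knockout-labelled comparison, and C4b in the wild-type comparison. In bulk RNA, more cells of a type and more RNA per cell cannot be told apart. The groups did not overlap for 6 higher genes and 1 lower gene in knockout-labelled lungs (43.9% of all genes tested) and for 4 of the 9 in wild-type lungs (11.6% of all genes tested).

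Between the labels, 5 of the 9 genes were called under HDM and none under saline. Under HDM, C1qa, C1qc, Cfb, C3ar1 and C5ar1 were higher in KO_HDM than in WT_HDM, 5 of 9 in a comparison in which 6.67% of all genes were called, 4.79% higher and 1.88% lower; C2, C4b and C3 had log2 fold changes of -0.04, -0.13 and 0.09 with adjusted p of 0.691 or more. The median of the 9 was 0.89, beside -0.01 over all genes. Under saline, 0 of 9 were called by edgeR, DESeq2 or limma voom, where 0.908% of all genes were called by edgeR, and 1 of the 9, C4b, had an unadjusted p under 0.05. The log2 fold changes of KO_saline over WT_saline lay between -0.21 and 0.37, and the 95% confidence intervals reached from -0.80 for C1qc to 0.92 for Cfb. The groups did not overlap for 3 of the 9 genes under HDM, Cfb, C3ar1 and C5ar1 (7.01% of all genes tested), and for 0 of 9 under saline (3.06% of all genes tested). The difference between the HDM effects of the 2 labels was itself called for 1 of the 9, C3ar1. In that test 1.24% of all genes were called and 1% were called in the higher direction. An unadjusted p under 0.05 was reached by 6 of the 9, among them C4b, whose difference was negative (-0.50). The share of all genes at an unadjusted p under 0.05 was not computed, so such counts have no background here. Each comparison between labels shares libraries with both HDM comparisons, so they are not independent.

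**Figure D2:**
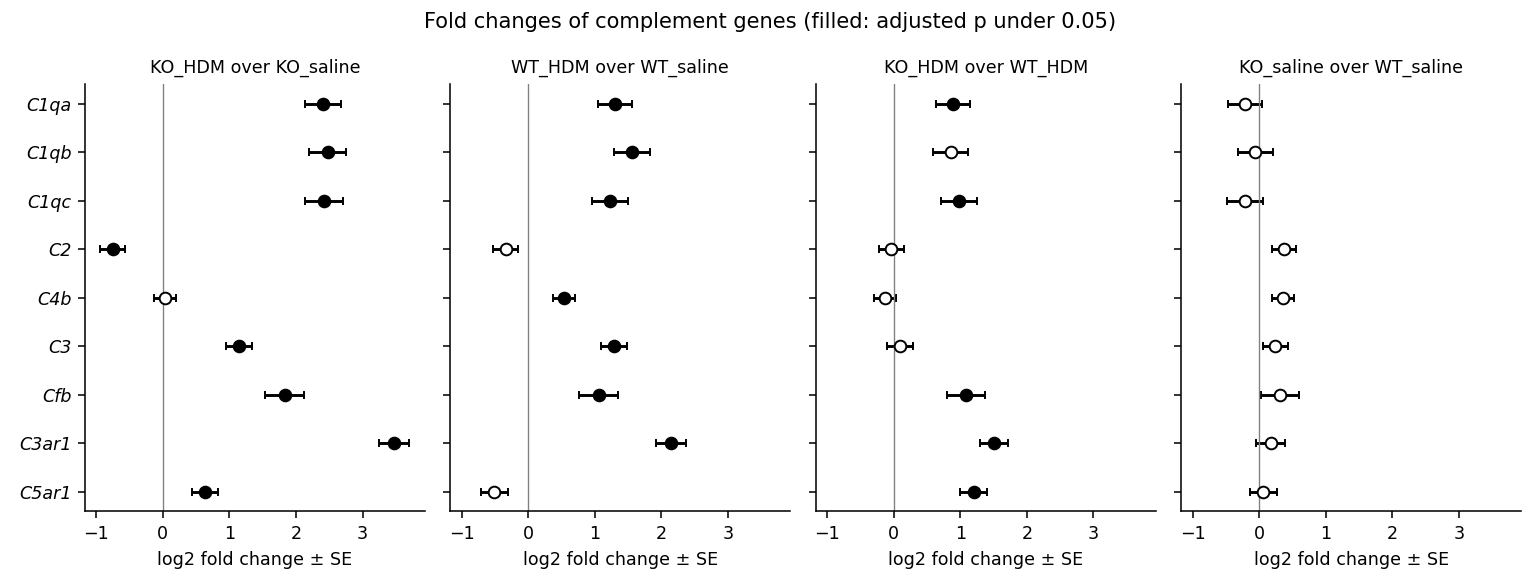
Log2 fold change of each of the 9 genes in 4 comparisons, from edgeR's fit over all 20 libraries; lines are ± SE, filled points have an adjusted p under 0.05, and the vertical line at 0 marks no difference. C3ar1 had the largest fold changes with HDM (3.47 in knockout-labelled and 2.14 in wild-type lungs), and C3 was not called between the labels under either treatment.

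The 3 chains of C1q rose together with HDM. C1qa had 92.7, 115, 139, 193 and 101 CPM in the KO_HDM libraries, against 20.4, 25.1, 22.4, 27.2 and 25.8 CPM in the KO_saline libraries. In wild-type lungs it had 70.8, 105, 53.7, 63.8 and 52.0 CPM in the WT_HDM libraries, against 17.9, 24.7, 26.7, 49.6 and 21.3 CPM in the WT_saline libraries. Every HDM library was above every saline library of its label, with a narrow gap in wild type because WT_saline 4, at 49.6 CPM, stood close to the lowest WT_HDM library. The log2 fold change was 2.40 ± 0.27 (SE; adjusted p = 9.26e-07, edgeR), or 5.29-fold, in knockout-labelled lungs, and 1.30 ± 0.26 (adjusted p = 0.00106), or 2.46-fold, in wild-type lungs. C1qb ranged over 87.2 to 164 CPM in KO_HDM and 15.9 to 23.3 CPM in KO_saline, and over 41.0 to 91.6 CPM in WT_HDM and 11.8 to 38.5 CPM in WT_saline. The log2 fold changes were 2.48 ± 0.28 and 1.56 ± 0.27. The HDM and saline libraries of C1qb did not overlap in either label. C1qc ranged over 75.6 to 158 CPM in KO_HDM and 14.4 to 22.6 CPM in KO_saline, and over 38.4 to 80.8 CPM in WT_HDM and 13.9 to 41.4 CPM in WT_saline. Its log2 fold changes were 2.42 ± 0.29 and 1.23 ± 0.28, and in wild type its groups overlapped through WT_saline 4.

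Under HDM the 3 chains were 1.81 to 1.97 times as high in the knockout-labelled lungs as in wild type, and the calls lay close to the threshold. The log2 fold change of KO_HDM over WT_HDM was 0.89 ± 0.25 for C1qa (SE; adjusted p = 0.0413, edgeR), 0.98 ± 0.27 for C1qc (adjusted p = 0.0374) and 0.86 ± 0.26 for C1qb, which was not called (adjusted p = 0.057). WT_HDM 2 was the wild-type library that overlapped the knockout-labelled ones for each chain. The C1qa call was lost without any one of 13 libraries (KO_HDM 2, 3 and 4, KO_saline 1 to 5, WT_HDM 1, 3, 4 and 5, and WT_saline 3), with adjusted p of 0.0531 to 0.148, with no filter on low counts (0.0533) and in a fit of those 10 libraries alone (0.0643). The C1qc call was lost without any one of 10 (KO_HDM 2, 3 and 4, KO_saline 2, 3 and 5, and WT_HDM 1, 3, 4 and 5; 0.0501 to 0.132), and C1qb was called without KO_HDM 5, WT_HDM 2, WT_saline 1 or WT_saline 4 (0.0135 to 0.0434), by DESeq2 (0.0172) and limma voom (0.0287), with the adipose covariate (0.0363) and without the adipose-rich libraries (0.00868). The HDM effects of the labels differed by 1.10 ± 0.36 for C1qa, 0.92 ± 0.37 for C1qb and 1.19 ± 0.39 for C1qc on the log2 scale, and none of these differences was called (adjusted p = 0.137, 0.233 and 0.137).

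Because the chains form one protein, their proportions were compared within libraries as ratios of counts, which need no scaling. The mean log2 ratio of C1qa to C1qb was 0.18 ± 0.08 in KO_HDM and 0.27 ± 0.12 in KO_saline, and 0.16 ± 0.17 in WT_HDM and 0.44 ± 0.15 in WT_saline (SD, n = 5 each). The mean log2 ratio of C1qc to C1qb was -0.11 ± 0.08 in KO_HDM and -0.05 ± 0.09 in KO_saline, and -0.22 ± 0.24 in WT_HDM and 0.11 ± 0.25 in WT_saline. The largest difference in the C1qa ratio, WT_HDM minus WT_saline, was -0.28 (exact two-sided permutation p = 0.0317, adjusted p = 0.254 over 8 tests), and none of the 8 tests passed after adjustment. The smallest p that 5 against 5 libraries allow is 0.00794.

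Markers of monocytes and interstitial macrophages, a group of 12 genes that does not hold the C1q chains, moved with them. Of the 12, 9 were higher and 1 lower in KO_HDM than in KO_saline, beside 26.2% and 25.7% of all genes. In WT_HDM over WT_saline 6 were higher and 0 lower, beside 13.6% and 16.5%. In KO_HDM over WT_HDM 6 were higher and 1 lower, beside 4.79% and 1.88%. The marker sum ranged over 605 to 982 CPM in KO_HDM and 339 to 598 CPM in KO_saline, against 501 to 674 CPM in WT_HDM and 340 to 436 CPM in WT_saline. Ms4a7, a membrane protein of tissue macrophages, was higher by 3.82 ± 0.27 on the log2 scale with HDM in knockout-labelled lungs, by 2.49 ± 0.26 with HDM in wild-type lungs and by 1.28 ± 0.24 in KO_HDM over WT_HDM. Lyve1, a hyaluronan receptor of resident macrophages and lymphatic vessels, was instead lower, with log2 fold changes of -1.71 ± 0.25 with HDM in knockout-labelled lungs and -1.15 ± 0.25 in KO_HDM over WT_HDM. The mean log2 CPM of the C1q chains exceeded that of the 12 markers by 1.61 ± 0.30 in KO_HDM and 0.47 ± 0.13 in KO_saline, and by 1.11 ± 0.16 in WT_HDM and 0.64 ± 0.50 in WT_saline (SD, n = 5 each). Of 8 alveolar macrophage markers, 3 were higher and 2 lower with HDM in each label. In these comparisons 51.9% (knockout-labelled) and 30.1% (wild-type) of all genes were called. In KO_HDM over WT_HDM 1 of the 8 was higher and 1 lower, where 6.67% of all genes were called. The sum of the 8 was 3530 to 6840 CPM in KO_HDM and 435 to 835 CPM in KO_saline. It was 4940 to 11600 CPM in WT_HDM and 439 to 680 CPM in WT_saline. Its median was lower in KO_HDM (4850 CPM) than in WT_HDM (5810 CPM). Most of the sum under HDM was 1 gene, Chil3, at 3191 to 6605 CPM in KO_HDM and 4714 to 11140 CPM in WT_HDM. The median log2 fold change of the 8 with HDM was -0.08 in knockout-labelled and 0.12 in wild-type lungs. How much of the C1q difference follows the number of macrophages was not tested.

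**Figure D3:**
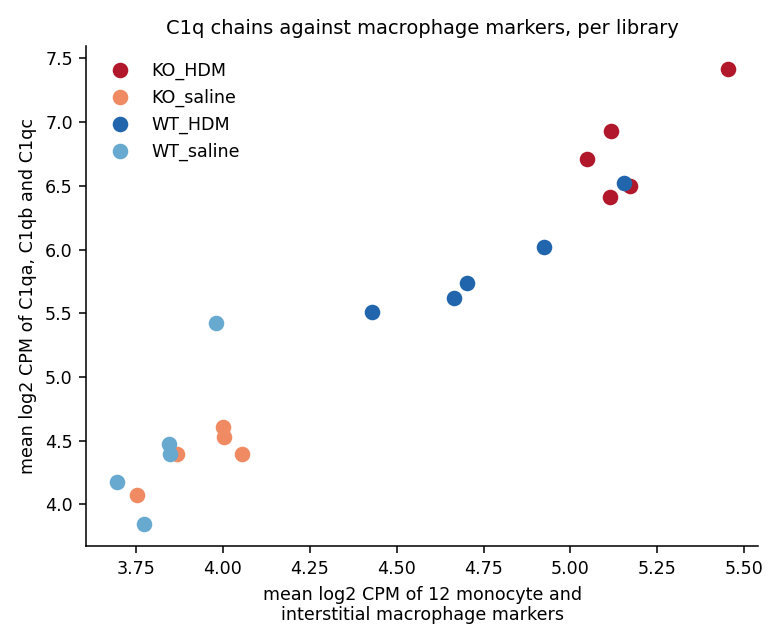
Mean log2 CPM of C1qa, C1qb and C1qc (vertical axis) against the mean log2 CPM of 12 monocyte and interstitial macrophage markers (horizontal axis), 1 point for each of the 20 libraries, coloured by group. The saline libraries lie at the lower left and the HDM libraries at the upper right, KO_HDM 4 is highest on both axes, and WT_saline 4 stands above the other saline libraries on the C1q axis.

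C4b and C2, which form the C3-cleaving enzyme downstream of C1q, did not rise with the chains in knockout-labelled lungs. In wild-type lungs C4b was called higher with HDM and C2 was not called. C4b had 358, 467, 472.5, 446 and 436 CPM in the KO_HDM libraries, against 348, 426, 482.5, 414 and 454 CPM in the KO_saline libraries. It had 443, 495, 491, 389 and 573 CPM in the WT_HDM libraries, against 227, 283, 481, 394 and 266 CPM in the WT_saline libraries. The groups overlapped in both comparisons, and 3 of the 5 WT_saline libraries lay below every other library of the study. The log2 fold change with HDM was 0.04 ± 0.165 (SE; adjusted p = 0.868, edgeR; 95% confidence interval -0.31 to 0.39) in knockout-labelled lungs and 0.53 ± 0.165 (adjusted p = 0.02) in wild-type lungs. The wild-type call was lost without WT_saline 2 (adjusted p = 0.0525), without the adipose-rich libraries (0.0578) and in a fit of those 10 libraries alone (0.093). The difference between the HDM effects, -0.50 ± 0.23, was not called (adjusted p = 0.304). C4b counts were fractional in 100% of libraries, since the authors' method shares reads between C4b and its near-identical neighbour C4a, so the 2 genes are uncertain one by one; C4a was tested and not called in any comparison.

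C2 was the one gene of the 9 called lower with HDM, in knockout-labelled lungs. It had 21.4, 29.0, 32.7, 33.01 and 31.9 CPM in the KO_HDM libraries, against 33.4, 39.8, 61.6, 52.1 and 62.1 CPM in the KO_saline libraries. In wild-type lungs it had 29.1, 34.85, 27.5, 28.1 and 32.2 CPM in the WT_HDM libraries, against 27.5, 31.95, 54.9, 44.6 and 33.6 CPM in the WT_saline libraries. Every KO_HDM library lay below every KO_saline library, the closest pair being KO_HDM 4 at 33.01 CPM and KO_saline 1 at 33.4 CPM, and the wild-type groups overlapped. The log2 fold change was -0.75 ± 0.19 (SE; adjusted p = 0.00247, edgeR) in knockout-labelled lungs and -0.34 ± 0.19 (adjusted p = 0.178) in wild-type lungs, and the difference between the 2 was not called (-0.41 ± 0.265, adjusted p = 0.484). Under HDM the labels had nearly the same level, 29.6 ± 4.83 CPM in KO_HDM and 30.35 ± 3.10 CPM in WT_HDM (SD, n = 5 each; 95% confidence interval of the log2 difference -0.43 to 0.36).

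C3, the protein on which the pathways converge, rose by a similar factor in both labels. It had 2403, 3351, 3668, 3636 and 3683 CPM in the KO_HDM libraries, against 1235, 1414, 1565, 1617 and 1759 CPM in the KO_saline libraries. It had 3457, 4246, 2715, 2661 and 2640 CPM in the WT_HDM libraries, against 847.5, 1329, 1482, 1781 and 981 CPM in the WT_saline libraries. The HDM libraries of each label all lay above its saline libraries, and KO_HDM 1 was the lowest of the HDM libraries. With HDM the log2 fold change was 1.14 ± 0.19 (SE; adjusted p = 7.91e-05, edgeR) in knockout-labelled and 1.29 ± 0.195 (adjusted p = 9.3e-05) in wild-type lungs. KO_HDM over WT_HDM was 0.09 ± 0.19 with a 95% confidence interval of -0.32 to 0.50, which leaves room for differences of that size.

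Cfb rose with HDM in both labels, and under HDM it was higher in the knockout-labelled lungs. It had 179, 303.5, 258, 334 and 209 CPM in the KO_HDM libraries, against 47.6, 66.7, 83.8, 89.9 and 73.9 CPM in the KO_saline libraries. It had 130.5, 154, 121, 91.0 and 109 CPM in the WT_HDM libraries, against 32.98, 41.6, 60.2, 117 and 39.7 CPM in the WT_saline libraries. All KO_HDM libraries were above all WT_HDM libraries, and in wild type only WT_saline 4, at 117 CPM, reached into the range of the HDM libraries. The log2 fold change with HDM was 1.83 ± 0.29 (SE; adjusted p = 4.98e-05, edgeR) in knockout-labelled lungs and 1.05 ± 0.29 (adjusted p = 0.0101) in wild-type lungs, and the wild-type call was lost in a fit of those 10 libraries alone (adjusted p = 0.0502). KO_HDM over WT_HDM was 1.08 ± 0.29 (adjusted p = 0.0282), and that call was lost without any one of KO_HDM 2, 3 and 4 and WT_HDM 3, 4 and 5 (adjusted p of 0.058 to 0.0898). The difference between the HDM effects was 0.77 ± 0.40 and was not called (adjusted p = 0.357).

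C3ar1 had the largest log2 fold changes of the 9 genes in both HDM comparisons and in KO_HDM over WT_HDM. It had 68.55, 74.65, 100, 165 and 60.8 CPM in the KO_HDM libraries, against 10.2, 7.84, 8.003, 7.65 and 8.57 CPM in the KO_saline libraries. It had 36.9, 39.0, 34.2, 28.0 and 27.6 CPM in the WT_HDM libraries, against 8.56, 8.39, 8.13, 5.70 and 6.78 CPM in the WT_saline libraries. The saline groups overlapped, the WT_HDM libraries lay clear above both, and the KO_HDM libraries lay clear above WT_HDM, with KO_HDM 4 the highest. Its log2 fold change with HDM was 3.47 ± 0.23 (SE; adjusted p = 5.27e-09, edgeR), or 11.1-fold, in knockout-labelled lungs and 2.14 ± 0.22 (adjusted p = 1.88e-06), or 4.41-fold, in wild-type lungs. KO_HDM over WT_HDM was 1.502 ± 0.21 (adjusted p = 0.000271), higher in 5 of 5 KO_HDM libraries than in any WT_HDM library. The difference between the HDM effects was 1.33 ± 0.30 (adjusted p = 0.0356). That last call was lost without any one of 11 libraries (KO_HDM 3, KO_saline 2 to 5, WT_HDM 3 to 5 and WT_saline 1 to 3), with adjusted p of 0.0524 to 0.0722, without the adipose-rich libraries (0.0617), with the replicate block (0.0564) and with limma voom (0.0964). Relative to the mean of the 12 monocyte and macrophage markers, C3ar1 stood at 1.27 ± 0.46 in KO_HDM and -0.85 ± 0.27 in KO_saline, and at 0.27 ± 0.14 in WT_HDM and -0.92 ± 0.31 in WT_saline on the log2 scale.

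C5ar1 did not share the rise of C3ar1. It had 20.1, 26.4, 24.35, 35.3 and 14.8 CPM in the KO_HDM libraries, against 13.2, 17.75, 14.9, 14.9 and 17.4 CPM in the KO_saline libraries. It had 11.6, 13.05, 8.155, 7.13 and 12.7 CPM in the WT_HDM libraries, against 15.2, 12.1, 16.6, 12.7 and 18.3 CPM in the WT_saline libraries. The KO_HDM libraries all lay above the WT_HDM libraries, while each HDM group overlapped its saline group. With HDM its log2 fold change was 0.63 ± 0.20 (SE; adjusted p = 0.0124, edgeR; 0.0559 without KO_HDM 4) in knockout-labelled lungs and -0.51 ± 0.20 (adjusted p = 0.0643) in wild-type lungs. The wild-type difference was called without the adipose-rich libraries (-0.63, adjusted p = 0.0329), with the adipose covariate (0.0427) and without KO_HDM 4 (0.0433) or KO_HDM 5 (0.038). KO_HDM over WT_HDM was 1.2 ± 0.20 (adjusted p = 0.00132), or 2.30-fold. The difference between the HDM effects, 1.14 ± 0.285, missed the threshold (adjusted p = 0.0549), and was called with DESeq2 (0.00803), with the filter at 1 CPM in 5 libraries (0.0436), with the adipose covariate (0.0329), without the adipose-rich libraries (0.0275) and without KO_HDM 5 (0.0186) or WT_HDM 2 (0.0392). C5aR1 is carried by neutrophils as well as macrophages, and neutrophil markers had higher summed medians in the knockout-labelled lungs under both treatments. Of 7 neutrophil markers tested of 8 listed, 5 were higher in KO_HDM than in WT_HDM and 0 lower, beside 4.79% and 1.88% of all genes. The sum of the 8 was 129 to 320 CPM in KO_HDM and 64.9 to 161 CPM in WT_HDM. Under saline 1 was higher and 0 lower, beside 0.593% and 0.315% of all genes, and the sum was 153 to 225 CPM in KO_saline and 89.7 to 141 CPM in WT_saline, without overlap, while C5ar1 was not called there. S100a9, a calcium-binding protein abundant in neutrophils, averaged 40.3 ± 17.4 CPM in KO_HDM and 14.0 ± 9.18 CPM in WT_HDM (SD, n = 5 each). It ranged over 46.7 to 78.6 CPM in KO_saline and 13.2 to 24.4 CPM in WT_saline, so its gap between the labels was present without HDM. Relative to the mean of the neutrophil markers, C5ar1 stood at 0.37 ± 0.10 in KO_HDM and 0.055 ± 0.11 in KO_saline, and at 0.42 ± 0.61 in WT_HDM and 0.96 ± 0.20 in WT_saline on the log2 scale. The part of neutrophil content in the C5ar1 difference was not tested.

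Liver transcripts moved with the KO_HDM group, and some of the genes above, such as C3, Cfb and C4b, are also abundant products of the liver. These 3 did not move alike. In KO_HDM over KO_saline, Cfb and C3 were higher and C4b was not called (log2 fold change 0.04). In KO_HDM over WT_HDM, Cfb was higher, while C3 (0.09) and C4b (-0.13) were not called. Of 14 liver markers, 12 were higher in KO_HDM than in KO_saline and 12 higher in KO_HDM than in WT_HDM, beside 26.2% and 4.79% of all genes. Some of the 14, such as Mup7 and Fgb, had 0 CPM in every library outside KO_HDM. They were tested only because of the KO_HDM libraries, so these counts are given without a fold change. The summed level of the 14 was 62.6 to 386 CPM in KO_HDM and 13.2 to 54.3 CPM in KO_saline. It was 7.97 to 193 CPM in WT_HDM and 12.7 to 44.7 CPM in WT_saline. The high ends came mostly from Cyp2e1, a cytochrome P450, at 287 CPM in KO_HDM 5 and 188 CPM in WT_HDM 4, both adipose-rich libraries. The sum of the other 13 markers was 39.8 to 136 CPM in KO_HDM and 3.11 to 4.35 CPM in KO_saline, against 1.61 to 4.65 CPM in WT_HDM and 2.98 to 4.94 CPM in WT_saline. Some terminal and lectin components that the liver makes had few counts, and they did not all follow the same order. C9 had 1 to 10 counts in KO_HDM libraries and 0 to 1 in the other libraries. C8b had 2 to 13 in KO_HDM libraries and 0 in the other libraries, and Mbl2 had 3 to 9 and 0. C8a had 9 to 22 in KO_HDM libraries and 0 to 5 in the other libraries. By contrast, Mbl1 had 18 to 30 counts in KO_HDM libraries and 24 to 43 in KO_saline libraries. Colec10 had 2 to 5 in KO_HDM libraries and 6 to 16 in KO_saline libraries. In a fit with the mean of the liver markers as a covariate none of the 9 genes was called in any comparison that involves KO_HDM, but every KO_HDM library was above every other library in that mean, so liver content and the group cannot be told apart by such a fit.

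The positions of the genes allow a comparison with their neighbours, in the gene order of RefSeq's GRCm38.p6 assembly. C1qb, C1qc and C1qa lie side by side on chromosome 4 between the ephrin receptor genes Ephb2 and Epha8. Ephb2 had log2 fold changes with HDM of 0.21 ± 0.32 in knockout-labelled and -0.42 ± 0.32 in wild-type lungs and was not called, and Epha8 had too few counts to be tested. C4b, Cfb and C2 lie within one stretch of the major histocompatibility complex on chromosome 17, and they moved differently from each other. Cfb was higher with HDM in both labels, the nearest tested gene on its other side, C2, was lower in knockout-labelled lungs, and the 5 tested genes between C4b and Cfb (C4a, Stk19, Dxo, Skiv2l and Nelfe) had log2 fold changes with HDM between -0.11 and 0.40, none called.

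**Figure D4:**
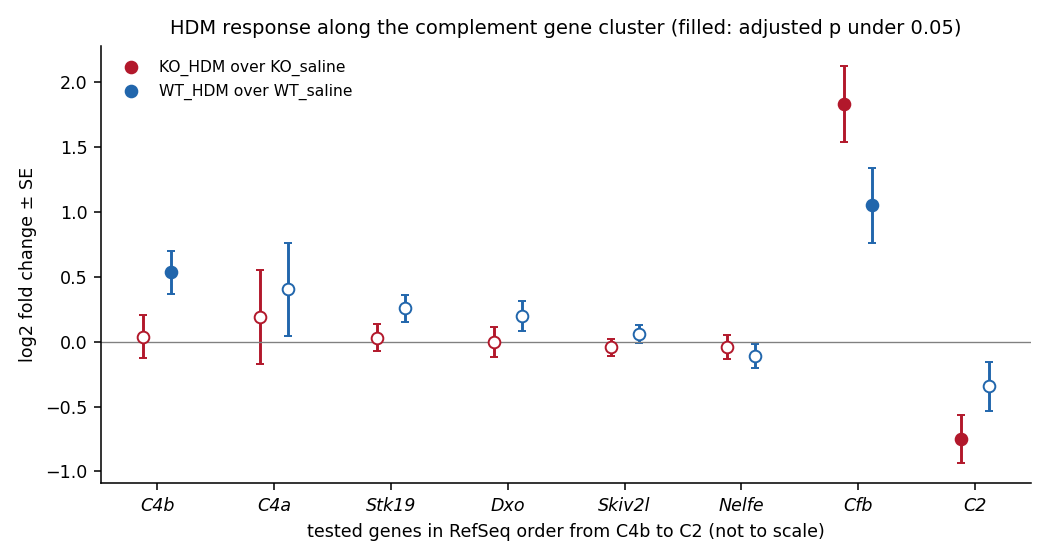
Log2 fold change with HDM (± SE; filled points have an adjusted p under 0.05) of the 8 tested genes from C4b to C2 on chromosome 17, in RefSeq order and not to scale, for KO_HDM over KO_saline and WT_HDM over WT_saline. Cfb (1.83 in knockout-labelled and 1.05 in wild-type lungs) stands above the genes to its left, and C2 (-0.75 and -0.34) below them.

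For each gene, the 3 other genes with the most similar profile were found as those with the smallest root mean square difference in centred log2 CPM over the 20 libraries, among 13154 candidates. The profile of C1qa was nearest to those of Kif14, a mitotic kinesin (0.25), Espl1, the protease separase that parts sister chromatids, and Ptafr, the receptor of platelet-activating factor. Among the 9, C1qa and C1qc were closer to each other (0.10) than either was to any gene outside. C1qb was nearest to Cdk1, a cyclin-dependent kinase, Kif14 and Slamf8, and C1qc to Rgs16, Ptafr and Espl1. Cfb was nearest to Rgs16, Ptafr and Bcl2a1b, and C3 to Ctps (0.24), which makes the nucleotide CTP, Rab3il1 and Fam20c. Among the genes nearest to C3ar1 were Cd200r1, an inhibitory receptor of myeloid cells (0.32), and Ctss, a lysosomal protease. C5ar1 was nearest to Siglece (0.25), Gbp2 and Cx3cr1, the fractalkine receptor of monocytes. Cx3cr1 had a log2 fold change of 1.05 ± 0.19 in KO_HDM over WT_HDM (adjusted p = 0.00175, edgeR), beside 1.2 for C5ar1. C2 was nearest to Aplp1 (0.21), Aldh1a2 and Pdlim1, and C4b to Tmem176b, Fdx1l and Samd1.

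Beyond these 9 genes, a list of 46 further complement genes held 45 that are in the table, of which 33 had enough counts to be tested. In KO_HDM over KO_saline 12 of the 33 were higher and 7 lower, and in WT_HDM over WT_saline 8 were higher and 2 lower, beside 26.2% higher and 25.7% lower of all genes tested in the first comparison and 13.6% higher and 16.5% lower in the second. The called share of the list lay near that of all genes in both (51.9% and 30.1%). The higher genes of both comparisons include C4bp and Cfhr2, which were tested only because of the HDM libraries. In KO_HDM over WT_HDM 5 of the 33 were higher and 0 lower, beside 4.79% and 1.88% of all genes. In KO_saline over WT_saline none of the 33 was called by edgeR, DESeq2 or limma voom, with 5 at an unadjusted p under 0.05. The median log2 fold changes of the list were 0.36, 0.14, 0.10 and 0.06 in these comparisons, against 0.02, -0.02, -0.01 and -0.03 over all genes. For the difference between the HDM effects none was called by edgeR or limma voom and 1 by DESeq2, with 6 at an unadjusted p under 0.05. The 5 and the 6 genes at that level went in both directions, and the share of all genes there was not computed.

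In the classical and lectin pathway part of the wider list, C1ra, C1s1 and C1rl were higher in KO_HDM than in WT_HDM. Of 8 tested genes of the classical and lectin pathways, C1ra, C1s1 and C1rl were higher and Masp1 lower in KO_HDM than in KO_saline, a comparison in which 51.9% of all genes were called, and none was called in wild type. C1ra encodes the protease C1r and C1s1 the protease C1s of the C1 complex. C1ra averaged 165 ± 32.5 CPM in KO_HDM and 121 ± 12.2 CPM in KO_saline, against 109 ± 20.3 CPM in WT_HDM and 96.1 ± 19.6 CPM in WT_saline (SD, n = 5 each). Its log2 fold change in KO_HDM over WT_HDM was 0.60 ± 0.16 (adjusted p = 0.0239, edgeR), that of C1s1 was 0.48 ± 0.11 (adjusted p = 0.00992) and that of C1rl 0.53 ± 0.14 (adjusted p = 0.0276), and the groups overlapped for each. Masp1, a protease of the lectin pathway, fell by 0.72 ± 0.29 on the log2 scale with HDM in knockout-labelled lungs (adjusted p = 0.0445). Several of these calls were close to the threshold. In KO_HDM over KO_saline, C1ra was lost without KO_HDM 2 or 4 (adjusted p = 0.056 and 0.0573) and C1s1 without KO_HDM 3 or 4 (0.0565 and 0.074). The Masp1 call was lost without any one of 13 libraries (KO_HDM 1, 3 and 4, KO_saline 1 to 5, WT_HDM 1, 3 and 5, and WT_saline 3 and 5), with adjusted p of 0.054 to 0.13. It was also lost with no filter on low counts (0.0634), with the filter at 1 CPM in 5 libraries (0.0619) and with the gene Rn45s left out of library sizes (0.0564). For KO_HDM over WT_HDM, C1ra was lost without KO_HDM 2, 3 or 4 or WT_HDM 3 or 4 (0.0616 to 0.0799), and C1rl without these or WT_HDM 5 (0.0513 to 0.103). Both were also lost in a fit of the compared libraries alone (C1ra 0.0587, C1rl 0.0643).

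In the alternative pathway, properdin (Cfp), which stabilises the C3-cleaving enzyme, was higher with HDM by 1.25 ± 0.33 in knockout-labelled and 1.12 ± 0.33 in wild-type lungs on the log2 scale. The wild-type call was lost without WT_HDM 2 (adjusted p = 0.0545) and in a fit of the compared libraries alone (0.0891). Factor D (Cfd), the protease that cleaves factor B and a product of fat cells, was not called in any comparison and ranged from 0.924 to 343.5 CPM in KO_HDM and from 1.36 to 387 CPM in WT_HDM. Of 4 tested genes of the terminal pathway only C7 was called, lower in KO_HDM than in KO_saline, where 51.9% of all genes were called. C7 stood at 140 ± 35.8 CPM in KO_HDM and 241 ± 21.9 CPM in KO_saline, a log2 fold change of -0.78 ± 0.18 (adjusted p = 0.00102, edgeR). Hc, which encodes C5, the precursor of the ligand of C5ar1, had log2 fold changes with HDM of -0.01 and 0.46 in knockout-labelled and wild-type lungs and was not called. In wild-type lungs Hc was called by DESeq2 (adjusted p = 0.0467), and by edgeR with the adipose covariate (0.0192) and without the adipose-rich libraries (0.0348). It was also called there by edgeR without WT_HDM 2 (0.0217) or WT_HDM 4 (0.0444).

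Of 7 tested soluble regulators 3 were higher and 3 lower in KO_HDM than in KO_saline, beside 26.2% and 25.7% of all genes, and 3 were higher and 2 lower in WT_HDM than in WT_saline, beside 13.6% and 16.5%. Among the 3 higher genes, C4bp and Cfhr2 reached the level the filter on low counts asks for in no saline library, so they were tested only because of the HDM libraries and their calls are given without a fold change. C4bp, the C4b-binding protein, had 11 to 27 counts in KO_HDM libraries and 0 to 1 in KO_saline libraries, and 5 to 16 in WT_HDM libraries and 0 to 2 in WT_saline libraries. Factor I (Cfi), the protease that cuts C3b and C4b, had 2.94 ± 0.20 CPM in KO_HDM and 0.992 ± 0.432 CPM in KO_saline, and 3.47 ± 0.908 CPM in WT_HDM and 0.572 ± 0.227 CPM in WT_saline. Vitronectin (Vtn), which blocks the membrane attack complex, was lower with HDM, with log2 fold changes of -1.07 ± 0.25 and -1.51 ± 0.25 in knockout-labelled and wild-type lungs. Cfhr2, a relative of factor H, had 10 to 17 counts in KO_HDM libraries and 2 to 6 in KO_saline libraries, and 2 to 10 in WT_HDM libraries and 0 to 8 in WT_saline libraries, and the wild-type groups overlapped. The wild-type call of Cfhr2 was lost without any one of 15 libraries (KO_HDM 1 to 5, KO_saline 3 to 5, WT_HDM 2 to 4, and WT_saline 1 and 3 to 5; adjusted p of 0.0504 to 0.129). Among 7 tested membrane regulators, Cd46 and Csmd1 were higher and Susd4 and Cr1l lower in KO_HDM than in KO_saline, also beside 51.9% of all genes called. Cr1l was not called without KO_saline 2, 3 or 4, with adjusted p of 0.0501 to 0.0858. Csmd1 was also higher in WT_HDM than in WT_saline. That call was lost without any one of 12 libraries (KO_HDM 1 to 4, WT_HDM 1 to 4, and WT_saline 1, 2, 3 and 5), with adjusted p of 0.0504 to 0.0997, and in a fit of the compared libraries alone (0.0981).

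Of 5 tested receptors, the integrin subunits Itgam, Itgax and Itgb2, which bind fragments of C3b, were higher with HDM in both labels. Of all genes, 26.2% were higher with HDM in knockout-labelled and 13.6% in wild-type lungs. Itgax, the alpha chain of CR4, was higher with HDM by 2.41 ± 0.16 in knockout-labelled and 2.48 ± 0.16 in wild-type lungs on the log2 scale. Itgb2, the beta chain that CR4 shares with CR3, was higher by 1.72 ± 0.17 and 1.38 ± 0.17. In KO_HDM over WT_HDM Itgb2 was higher by 0.60 ± 0.17 (adjusted p = 0.0393, edgeR), and the groups overlapped. That call was lost without any one of 9 libraries (adjusted p of 0.0503 to 0.131), with the replicate block (0.0674), with the adipose covariate (0.0566) and in a fit of the compared libraries alone (0.0722). Itgam, the alpha chain of CR3, had 129.5, 160.1, 196, 324 and 125 CPM in the KO_HDM libraries, against 45.7, 46.8, 45.8, 45.45 and 58.3 CPM in the KO_saline libraries. It had 77.5, 95.7, 76.7, 56.2 and 44.4 CPM in the WT_HDM libraries, against 36.2, 43.3, 47.35, 39.2 and 42.7 CPM in the WT_saline libraries. Every KO_HDM library was above every other library, and the wild-type groups overlapped through WT_HDM 5. Its log2 fold changes with HDM were 1.95 ± 0.23 and 0.75 ± 0.23, and KO_HDM over WT_HDM was 1.42 ± 0.23 (adjusted p = 0.000831, edgeR). The wild-type call of Itgam was lost without the adipose-rich libraries (adjusted p = 0.122). The second C5a receptor, C5ar2, was not called, with log2 fold changes with HDM of 0.28 and 0.09 in knockout-labelled and wild-type lungs (adjusted p = 0.0856 and 0.669, edgeR). In knockout-labelled lungs C5ar2 was called in a fit of the compared libraries alone (adjusted p = 0.0349) and without the adipose-rich libraries (0.0109). It was also called there without any one of 6 libraries (0.0289 to 0.048).

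**Figure D5:**
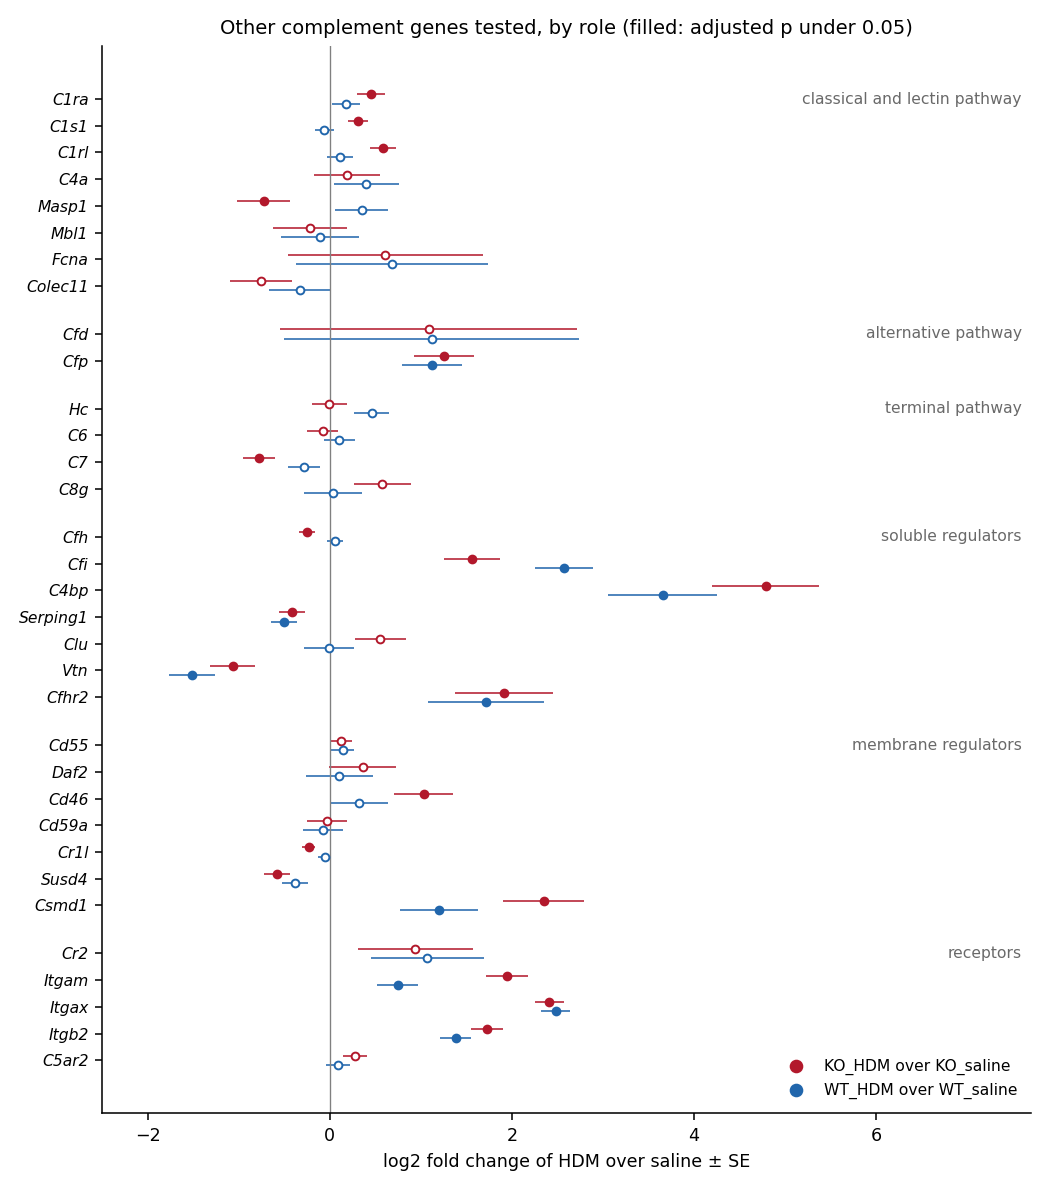
Log2 fold change with HDM (± SE; filled points have an adjusted p under 0.05) of the 33 other complement genes tested, grouped by role, for KO_HDM over KO_saline and WT_HDM over WT_saline. Vtn (-1.07 and -1.51) lies farthest to the left. C4bp and Cfhr2 were tested only because of the HDM libraries, so their positions are not read as effect sizes. The C4bp points are fitted values over saline libraries with 0 to 2 counts.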

How the data were processed

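Whole-lung RNA was sequenced in 20 libraries. Per the labels' protocols, mRNA was selected with oligo-dT beads and libraries were made strand-specific with dUTP, and rRNA depletion is named as well. The authors used Bowtie2 2.1.0 and RSEM 1.2.15, per the submitters' processing notes, which give the human build hg38 for a table of mouse symbols. The build is therefore not known and no coordinate comes from the table. The authors deposited expected counts, not normalized and not pooled. RSEM divides ambiguous reads between genes, which makes C4b and C4a uncertain individually.

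Rounded to whole numbers, they were filtered by group with filterByExpr of edgeR, and 16193 of 24054 genes were tested. In R 4.3.3, edgeR 4.0.16 scaled them with TMM factors and fitted 4 group means over all 20 libraries (16 residual degrees of freedom). P-values of its robust quasi-likelihood test were adjusted by Benjamini-Hochberg over all genes tested, and a gene counts as called when its adjusted p is under 0.05. Mean log2 CPM used a prior count of 2. Ratios of C1q counts used a pseudocount of 0.5 and exact permutation tests (Python 3.11.15, scipy 1.17.1). Exon lengths came from the GENCODE annotation, as the union of exons. Alternatives used DESeq2 1.42.0, limma 3.58.1 voom, other scalings and filters, the compared libraries alone, a replicate block, adipose and liver terms, and each library left out. The fit was tested on simulated counts. Replicate pairs differed well beyond sampling noise (chi-square per degree of freedom 9.53 to 118 in 40 pairs), so no library was counted as a duplicate.

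The 9 genes, the wider complement list and the marker lists were chosen with earlier results of these data known. Named from the wider list were up to 4 called genes per role and comparison with the largest change, and from the marker lists those that moved with a member. The other genes named (Cfd, Hc, C5ar2, C9, C8a, C8b, Mbl1, Mbl2, Colec10, Alb, Adipoq, Cyp2e1, Epha8, Chil3, Mup7, Fgb) were picked after their values were seen or as checks. Proteins and 4 of the promoters were not used here. One gene with a profile like that of C3ar1 is not reported here.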

Additional observations from a re-analysis of the deposited data

Results flagged for a closer look

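With 36 groups of 5 libraries examined for a single library standing apart, where chance alone flags about 1 in 20, 3 were picked out. WT_saline 4 had 49.58 CPM of C1qa, against 17.9 to 26.7 CPM in the other 4 WT_saline libraries. The same library had 38.49 CPM of C1qb, against 11.8 to 19.3 CPM in the others. Adipoq was above 50 CPM in that library too. KO_HDM 1 had 2403 CPM of C3, against 3351 to 3683 CPM in the other 4 KO_HDM libraries.

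The HDM effect on C3ar1 differed between the labels: it was larger by 1.33 on the log2 scale in knockout-labelled than in wild-type lungs, in a test of the difference itself (edgeR adjusted p = 0.0356, 0.00257 to 0.911 over the 33 alternatives).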

How the results depend on the processing

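Of the recomputed values of single members, 1409 kept their direction and their side of the threshold, 58 were no longer called, 26 became called and 28 changed sign. In a fit of the libraries compared alone the wider list had 6 calls for WT_HDM over WT_saline and 2 for KO_HDM over WT_HDM, and all genes had 2978 calls for WT_HDM over WT_saline. At an adjusted p under 0.01 the wider list had 12, 5 and 2 calls for KO_HDM over KO_saline, WT_HDM over WT_saline and KO_HDM over WT_HDM; members had 2 for KO_HDM over WT_HDM and 0 for the difference between HDM effects; and all genes had 2746 for WT_HDM over WT_saline, 91 for KO_saline over WT_saline, 398 for KO_HDM over WT_HDM and 32 for the difference. DESeq2 called 327 genes for KO_saline over WT_saline, 8 of the wider list for KO_HDM over WT_HDM, and for the difference between HDM effects 2 members, 1 of the wider list and 608 genes. For that difference members called were 0 with limma voom, 2 with the filter at 1 CPM in 5 libraries, 2 with the adipose covariate (470 genes), 2 without KO_HDM 5, the one library whose liver sum is over 10 times the median (1 of the wider list), and 3 without WT_saline 4, WT_HDM 2 and KO_HDM 5 together, a setting chosen after seeing the data (1 of the wider list); without the adipose-rich libraries 103 genes were called. The cause of these moves was not tested.

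With the liver covariate, which by construction separates KO_HDM from all other libraries, members and the wider list had 0 calls for KO_HDM over KO_saline (17 genes), and members, the wider list and all genes had 0 calls for KO_HDM over WT_HDM and 0 members and 0 genes for the difference between HDM effects. The log2 values then changed sign for KO_HDM over KO_saline (C1qa -0.006007, C4b -0.87, C3 -0.70, Cfb -0.33), KO_HDM over WT_HDM (C1qa -1.63, C1qb -1.21, C1qc -1.53, C3 -1.84, Cfb -1.20) and the difference between HDM effects (C1qa -1.46, C1qb -1.195, C1qc -1.36, Cfb -1.56). For KO_saline over WT_saline, where no member was called, signs changed without the adipose-rich libraries (C1qa 0.15, C1qb 0.30, C1qc 0.24, C5ar1 -0.0901), without WT_saline 4, WT_HDM 2 and KO_HDM 5 (C1qa 0.0946, C1qb 0.28, C1qc 0.12) and for C1qb with limma voom (0.0242).

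The labels do not say whether replicate numbers pair the libraries. The 30 same-number correlations of deviations ranged from -0.457 to 0.506, and 17 were over 0.1. Their median was 0.122, against -0.086 for pairs with different numbers. Of 20 libraries, 7 correlated best with their own number. Whether the numbers mark something shared was not tested. With the replicate block, 0 members were called for the difference between HDM effects (C3ar1 adjusted p = 0.0564), C1qb was called for KO_HDM over WT_HDM (adjusted p = 0.0441), and C1qb changed sign for KO_saline over WT_saline (0.01503).

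With each library left out in turn, members called for KO_HDM over WT_HDM ranged from 2 to 6, the wider list from 2 to 6 and all genes from 533 to 1380; for the difference between HDM effects these were 0 to 2, 0 to 1 and 77 to 260. Members called with HDM ranged from 7 to 8 in knockout-labelled and 6 to 8 in wild-type lungs. The log2 values of KO_saline over WT_saline ranged from -0.34 to 0.10 for C1qa, -0.20 to 0.28 for C1qb, -0.35 to 0.12 for C1qc and -0.00783 to 0.13 for C5ar1, and those of C2 for KO_HDM over WT_HDM from -0.0769 to 0.0612. The difference in the log2 C1qa to C1qb ratio, KO_HDM minus WT_HDM, ranged from -0.0448 to 0.0625. Depth limits genes such as C9 and Mbl2, with 10 counts or fewer per library, more than the members.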
